A study of Mus musculus with 3 samples.

Results

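The sites described are 364 of the 20870 regions listed for a KAP1 ChIP-seq library of mouse embryonic stem (ES) cells. Each has a region of the HA control library less than 150 bp away, measured between starts, and no region of the HA-ZFP57 library within 10 kb on the same chromosome. They are therefore sites listed in both cultures without the transgene and not listed, at the site or near it, in the culture that expressed HA-tagged ZFP57. They made up 1.74% of the KAP1 list (exact binomial 95% interval 1.57 to 1.93%) and had 355 different control regions as their nearest, 0.772% of the control list. The sites were chosen by the region positions measured in all 3 lists, so counts and distances between lists are descriptions and carry no test.

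The study held 3 libraries, 1 per group, and the series listed 88857 regions in all. The control was an HA ChIP in ES cells with no expressed transgene (45956 regions), and its cell line is not named. The ZFP57 library was an HA ChIP in ES cells expressing HA-tagged ZFP57 (22031 regions), with the promoter and the level of the transgene not given. The KAP1 library was a ChIP with the antibody KAP1 (RBCC) in E14 ES cells, also with no transgene, so the KAP1 and control libraries differ in antibody and possibly in cell line. Regions are 150 bp wide throughout and have no score, and the depth of the libraries is unknown. A site missing from a list can lie just under that library's threshold, and this was not tested.

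KAP1, also called TRIM28, is a corepressor that KRAB zinc finger proteins bring to DNA, where it recruits enzymes that place repressive histone marks. In ES cells it is known for silencing transposable elements and for guarding imprinted loci, the latter together with ZFP57, which reads a methylated sequence motif. HA is a short peptide tag. In cells without a tagged protein an HA antibody has no intended target, so regions listed there are usually taken as background of the method, such as chromatin that is recovered easily or sequence to which too many reads are mapped. A KAP1 region on such a site is a region that KAP1 antibody and untargeted HA antibody both recovered. Coordinates are of build mm9, counted from 1, and no genes or sequences of that build were used here.

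Being listed in the control was much rarer away from ZFP57 regions. Of all KAP1 regions, 9838 of 20870 had a control start less than 150 bp away, 47.1%. Among the 4726 KAP1 regions more than 10 kb from ZFP57 the share was 7.70%, which are the 364 sites. By distance to the nearest ZFP57 region the share fell from 77.6% under 0.15 kb to 35.4% between 0.15 and 1 kb and 19.9% between 1 and 10 kb. Beyond 10 kb it was 11.3% up to 20 kb (exact interval 8.99 to 14%), 8.42% from 20 to 50 kb (6.82 to 10.3%), 7.49% from 50 to 200 kb (6.37 to 8.74%) and 4.66% from 200 to 500 kb (3.27 to 6.42%). Above 500 kb it was 6.25% (18 of 288, 3.75 to 9.70%). Beyond 10 kb the intervals of neighbouring steps all overlapped, and the last value was higher than the one before it. The interval from 10 to 20 kb lay above that from 200 to 500 kb. Seen from the other list, 356 of the 25931 control regions more than 10 kb from ZFP57 had a KAP1 start less than 150 bp away, 1.37% (1.24 to 1.52%). The intervals cover counting error only.

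**Figure D1:**
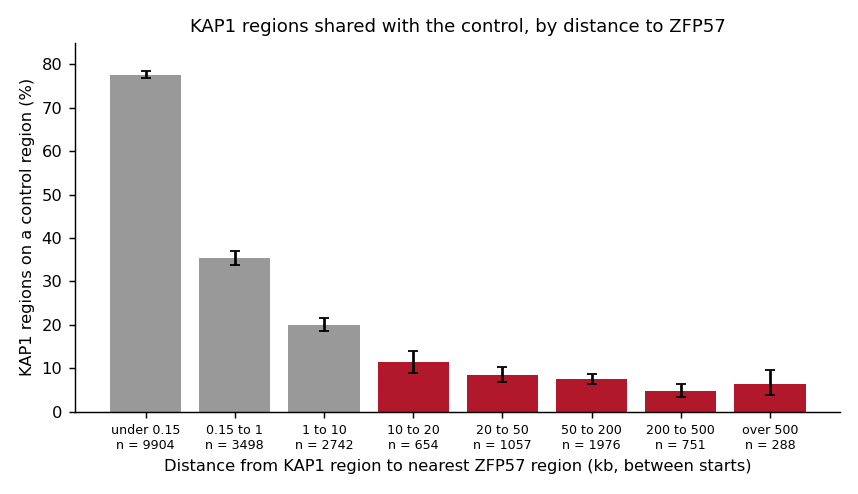
Share of KAP1 regions with a control start less than 150 bp away (vertical axis, percent) by distance to the nearest ZFP57 region (horizontal axis, kb), with exact binomial 95% intervals as bars and the number of KAP1 regions under each. Grey columns lie within 10 kb of ZFP57 and red columns hold the 364 sites; the share falls from 77.6% to 4.66% between 200 and 500 kb and is 6.25% above 500 kb.

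The sites lay at a wide range of distances from ZFP57. The nearest ZFP57 region was 57.6 kb away at the median, with quartiles at 23.4 and 141.7 kb. For all 4726 KAP1 regions beyond 10 kb the median was 78.9 kb. Of the sites, 74 had a ZFP57 region between 10 and 20 kb away and 132 (36.3%) had none within 100 kb. In a 1 Mb window without any ZFP57 region lay 22 sites. The shares of the 4726 regions for these counts at 100 kb and 1 Mb are not given here. The site farthest from ZFP57 was chr1:28228047-28228196, 1483.1 kb away, with its control region 4 bp to the right and the next KAP1 region 661.4 kb away. It was followed by chrX:60807391-60807540 at 1312.5 kb, chr2:81829370-81829519 at 1150.9 kb, chr16:81016130-81016279 at 1146.3 kb and chr8:40898494-40898643 at 911.8 kb. Their control starts lay 48, 9, 5 and 19 bp away. The site on chromosome 16 was the only one of these 5 with another KAP1 region within 10 kb, at 3.6 kb.

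The 10 kb limit cut through a continuous range. Just inside it were 2 sites on chromosome 13, chr13:65900234-65900383 with ZFP57 at 10015 bp and chr13:66228197-66228346 with ZFP57 at 10073 bp. In both the nearest other KAP1 region was 946 bp away. Just outside it were chr16:20944587-20944736 with ZFP57 at 9979 bp and chr19:11493644-11493793 at 9974 bp. For the offset limit, chr7:49914414-49914563 and chr9:72096693-72096842 were just inside, with control starts at -149 and 148 bp. Just outside were chr7:114057951-114058100 at -150 bp and chr7:25614436-25614585 at -151 bp.

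KAP1 and control starts at the sites lay less than 150 bp apart by the rule, and the regions were not centred on each other. The control start lay at the lower coordinate in 241 of 364 sites (66.2%, exact interval 61.1 to 71.1%), at the higher coordinate in 117 and at the same base in 6. The median signed offset, control minus KAP1, was -20.5 bp, with quartiles at -64 and 13.3 bp. All 9838 KAP1 regions on control regions had the same direction, with a median of -18 bp and 66.7% lower. ZFP57 regions on control regions also had a median of -18 bp (n = 10800). KAP1 and ZFP57 regions had a median offset of 0 bp from each other, with 49.3% lower and 49.2% higher among 9839 shared ZFP57 regions. The offset was thus a property of the control list against both other lists, and the sites shared it. The cause of the offset was not tested.

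The direction was seen across chromosomes. Over all shared KAP1 regions the median offset was below 0 on 21 of 21 chromosomes, between -22 and -13 bp. Among the sites it was below 0 on 16 of the 17 chromosomes with at least 10 sites. The exception was chromosome 9, where 12 sites had a median of 20 bp and 5 had the control lower. On chromosome 4 the median was -42 bp (23 sites) and on chromosome 13 it was -2.5 bp (22 sites). Sites with no other KAP1 region within 10 kb had a median of -18 bp (n = 231), and the 133 others had -23 bp.

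**Figure D2:**
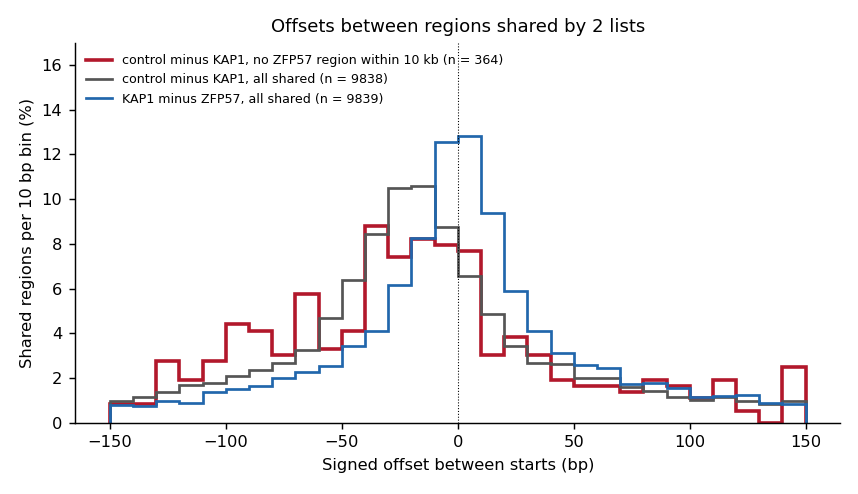
Signed distance between starts of regions shared by 2 lists (horizontal axis, bp) as a percentage of shared regions per 10 bp bin (vertical axis). The red line (the 364 sites) and the grey line (all 9838 KAP1 regions on control regions) peak left of 0, with medians of -20.5 and -18 bp, and the blue line (KAP1 minus ZFP57, 9839 ZFP57 regions) peaks at 0.

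Without regard to direction the median distance between KAP1 and control starts was 40 bp, with quartiles at 18 and 84 bp. The starts lay within 10 bp in 58 sites, within 25 bp in 116, within 50 bp in 204 and within 100 bp in 309. Within 50 bp this was 56.0% (exact interval 50.8 to 61.2%), beside 65.1% of all 9838 KAP1 regions on a control region (64.1 to 66.0%), whose median distance was 34 bp. The rule keeps every distance below 150 bp, and starts spread evenly over that range would give 33.8% within 50 bp. Where a ZFP57 region was also less than 150 bp away, 67.8% of 7688 KAP1 regions had the control start within 50 bp (66.8 to 68.9%) and the median distance was 32 bp. ZFP57 regions on a control region with no KAP1 region within 10 kb had 60.4% (n = 942, 57.2 to 63.5%) and a median of 39 bp. These sets were not tested against each other, because regions of 1 library are not replicates. Beyond the limit of 149 bp, the number of KAP1 regions far from ZFP57 dropped quickly with distance to the control. It was 364 from 0 to 149 bp, 72 from 150 to 299 bp, 48 from 300 to 449 bp and 26 to 37 in each further step of 150 bp up to 1499 bp. Over all KAP1 regions the first 3 steps held 9838, 1521 and 843. The first step is the one that chose the sites, so its size is a description.

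In 6 sites the starts were the same base. The first 5 in genome order were chr2:126272570-126272719, chr5:110435201-110435350, chr8:125699093-125699242, chr10:41774973-41775122 and chr13:54928145-54928294, with ZFP57 at 74.7, 10.9, 20.5, 71.9 and 23.1 kb. The chromosome 8 site had another KAP1 region 266 bp away. A second site lay 473 bp below it, with its control start at -14 bp.

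Most sites stood alone. Joined within 5 kb they formed 338 loci, of which 315 held 1 site, 21 held 2, 1 held 3 and 1 held 4. The nearest other KAP1 region was 28.9 kb away at the median, and 231 sites (63.5%) had none within 10 kb. Another KAP1 region lay within 10 kb of 133 sites, 36.5% (exact interval 31.6 to 41.7%), and within 1 kb of 14.3% (10.9 to 18.3%). The rule removes neighbourhoods with ZFP57 regions, so the whole KAP1 list, with 77.0% within 10 kb, is no like set. Among all 4726 KAP1 regions far from ZFP57, the set the sites were drawn from, 29.2% had a KAP1 neighbour within 10 kb (27.9 to 30.6%). Among KAP1 regions far from both other lists it was 24.1% (n = 3009, 22.5 to 25.6%). Among ZFP57 regions on the control without KAP1, 33.4% had a ZFP57 neighbour (30.4 to 36.6%). Where all 3 libraries coincided it was 92.7%.

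**Figure D3:**
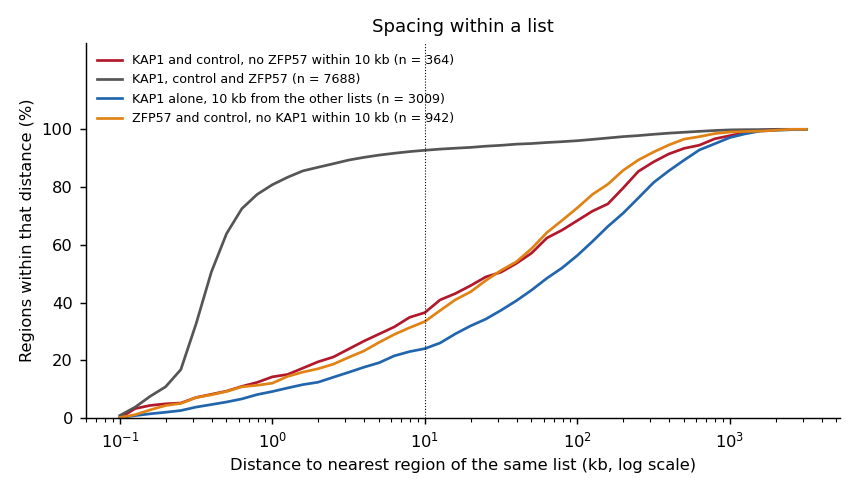
Cumulative percentage of regions (vertical axis) whose nearest region of the same list lies within the distance on the horizontal axis (kb, log scale), for 4 sets of regions, with a dotted line at 10 kb. The red line (the 364 sites) reaches 36.5% at 10 kb, near the orange line (33.4%), above the blue line (24.1%) and far below the grey line of regions common to the 3 lists (92.7%).

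The simplest surroundings were 1 control region and no other KAP1 region within 10 kb, which held for 139 sites (38.2%, exact interval 33.2 to 43.4%). A further 184 sites (50.5%, 45.3 to 55.8%) had 2 or more control regions within 10 kb, up to 9, and up to 7 other KAP1 regions were seen. Of all control regions, near ZFP57 or not, 57.2% had another control region within 10 kb (56.7 to 57.6%). The 50.5% is therefore not a trait of the sites. For the 139 sites, no share over a wider set is given here. The KAP1 neighbours of the 133 crowded sites numbered 204 different regions. On a control region lay 71 of them. By class, 61 were sites themselves, 119 were far from ZFP57 and had no control start within 149 bp, and 24 lay within 10 kb of a ZFP57 region. Of the 143 neighbours that were not sites, 10 were on a control region, all of them among the 24 within 10 kb of a ZFP57 region. A neighbour far from ZFP57 and on a control region is a site by the rule, so this count has no like share to be set beside.

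Some sites shared 1 control region. In 9 places a control region was the nearest one to 2 sites, whose KAP1 regions lay on either side of it or overlapped each other. The locus with 4 sites, chr5:36301850-36302545, showed this in duplicate. Its KAP1 starts were 120 bp apart in the first pair and 129 bp apart in the second, and only 2 control regions lay in it, at 27 and -93 bp from the first pair and at 38 and -91 bp from the second. The nearest ZFP57 region was 23.8 kb away. The locus with 3 sites was chr17:85371861-85376960, 5100 bp long with 2 control regions and ZFP57 at 25.3 kb. The next loci in genome order, with 2 sites each, were chr1:45689472-45692985 (ZFP57 at 221.4 kb), chr2:21638668-21642598 (156.3 kb) and chr2:177645487-177645759 (64.1 kb). The last of these held 1 control region for both sites.

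The sites were spread over 273 windows of 1 Mb, of which 207 held 1 site, 50 held 2 and 13 held 3. The fullest was chromosome 4 from 60 to 61 Mb, with 8 sites (exact Poisson interval 3.45 to 15.8). Intervals of windows picked for their counts treat neighbouring sites as independent and do not measure how far a window stands out. This window listed 27 KAP1, 20 control and 4 ZFP57 regions, so 8 of its 27 KAP1 regions were sites. Over the genome the sites were 1.74% of all KAP1 regions and 7.70% of those far from ZFP57. The share of the 27 that lay far from ZFP57 is not given here. The 8 sites began at 60035021, 60396585, 60396686, 60473685, 60484046, 60514417, 60545167 and 60735785. Their distances to ZFP57 were between 11.9 and 234.4 kb. Control starts lay at 124, 99, -2, -45, -42, -58, 38 and -60 bp, so the offset was not the same at all 8. The offsets of 99 and -2 bp belong to 2 sites on 1 control region. Whether any of the 8 are copies of 1 sequence was not tested.

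Chromosome 14 from 43 to 44 Mb held 6 sites (2.20 to 13.1) among 48 KAP1, 63 control and 29 ZFP57 regions. Of its sites, chr14:43445429-43445578 and chr14:43636628-43636777 repeated the same layout 191.2 kb apart. In both the control start lay at 85 bp and the nearest ZFP57 region at 10604 and 10603 bp. Within 25 kb of each, 3 regions matched in position to within 2 bp, namely 2 control regions and 1 ZFP57 region, out of 9 and 15 listed. It was the only pair of sites more than 50 kb apart with 3 or more matches within 25 kb. Likeness beyond 25 kb was not searched. For example, chr7:33517324-33517473 and chr7:33744219-33744368 both had the control start at -31 bp, with ZFP57 at 59982 and 59986 bp. Whether the sites of either pair are copies of 1 sequence was not tested.

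Chromosome 5 from 36 to 37 Mb held 4 sites, all in the locus described above, among 8 KAP1, 22 control and 6 ZFP57 regions. Next, in genome order, came chromosome 2 from 177 to 178 Mb (3 sites among 67 KAP1, 33 control and 28 ZFP57 regions) and chromosome 5 from 104 to 105 Mb (3 among 21, 30 and 14). Windows with 50 or more control regions held 60 sites, 16.5% (exact interval 12.8 to 20.7%). They held 31.8% of all control regions and 60.2% of all KAP1 regions, but the rule removes the surroundings of ZFP57 regions and so sets much of this placement: the share was 25.2% when 5 kb were kept from ZFP57 and 3.98% when 50 kb were kept. Of the 4726 KAP1 regions far from ZFP57, the set the sites were drawn from, such windows held 10.1% (9.23 to 11.0%). They held 7.54% of the KAP1 regions far from both other lists and 15.2% of the ZFP57 regions on the control without KAP1 (12.9 to 17.6%). A site's window held 23 control regions at the median, and between 1 and 279.

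By chromosome the sites were thinly spread, at 0.141 per Mb over the genome and a median of 0.144 per Mb over the 19 autosomes. Chromosome 17 had the highest autosomal density with 24 sites (0.26 per Mb, exact Poisson interval 0.167 to 0.387), followed by chromosome 7 with 37 (0.248, 0.174 to 0.341), chromosome 19 with 13 (0.223, 0.119 to 0.381) and chromosome 8 with 27 (0.21, 0.138 to 0.305). These 4 did not differ beyond their intervals. Chromosome 3 was the lowest autosome with 9 sites (0.058, 0.026 to 0.109), and X had 9 (0.055, 0.025 to 0.104). The Y chromosome held 1 site and the mitochondrial genome 0. With the span of a chromosome cut into 4 equal parts, the first part of chromosome 7 held 19 of its 37 sites, and the second part of chromosome 4 held 13 of 23. Of the latter, 8 lay in the window from 60 to 61 Mb. The same parts held 28 of 81 and 5 of 46 ZFP57 regions on the control without KAP1. The shares of all KAP1 and control regions in these parts are not given here. Across autosomes the density of sites had a Spearman correlation of 0.61 with control regions per Mb and 0.44 with protein-coding genes per Mb (n = 19, gene numbers from the GRCm38 RefSeq table). These describe chromosomes of the same libraries and carry no test.

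Sites missing from the KAP1 list instead gave the most direct comparison. ZFP57 regions with a control start less than 150 bp away and no KAP1 region within 10 kb numbered 942, so the 364 sites were 27.9% of both kinds together (exact interval 25.5 to 30.4%). On chromosome 8 each kind had 27, and the sites were 50% (36.1 to 63.9%). On the other chromosomes together they were 26.9% (337 against 915, 24.5 to 29.5%). The chromosome 8 share was the highest of the 19 autosomes and X, the next being 35.1% on chromosome 19 (20.2 to 52.5%) and 34.6% on chromosome 5 (24.2 to 46.2%). The lowest was 12.5% on chromosome 3 (9 sites against 63, 5.88 to 22.4%).

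The high share on chromosome 8 went with a low count of ZFP57 and control sites without KAP1, and not with more of the 364 sites than its lists would give. Chromosome 8 held 7.42% of the sites (4.95 to 10.6%), beside 8.09% of the KAP1 list and 8.24% of the control list. Of its 338 KAP1 regions far from ZFP57, 7.99% were on a control region (5.33 to 11.4%), against 7.70% over the genome. Its density of 0.21 sites per Mb had an interval that held the autosomal median of 0.144. By contrast it held 0.21 per Mb of the ZFP57 and control sites without KAP1 (0.138 to 0.305), the lowest autosomal density, against a median of 0.37. It held 2.87% of these sites (1.90 to 4.14%), beside 6.64% of the ZFP57 list. In the regions of 1 list alone, at least 10 kb from both others, it held 8.72% of the control, 6.15% of the KAP1 and 3.61% of the ZFP57 regions. Its 27 sites lay in 26 loci and 20 windows with at most 2 in a window. In 4 equal parts of the chromosome's span the counts were 9, 4, 6 and 8 sites against 9, 2, 8 and 8 ZFP57 and control sites. Counts this small cannot show whether 1 stretch carried the share. Chromosome 8 was singled out after values of these data were known, and the intervals treat neighbouring regions as independent. With 1 library per culture, culture, antibody and depth cannot be told apart.

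**Figure D4:**
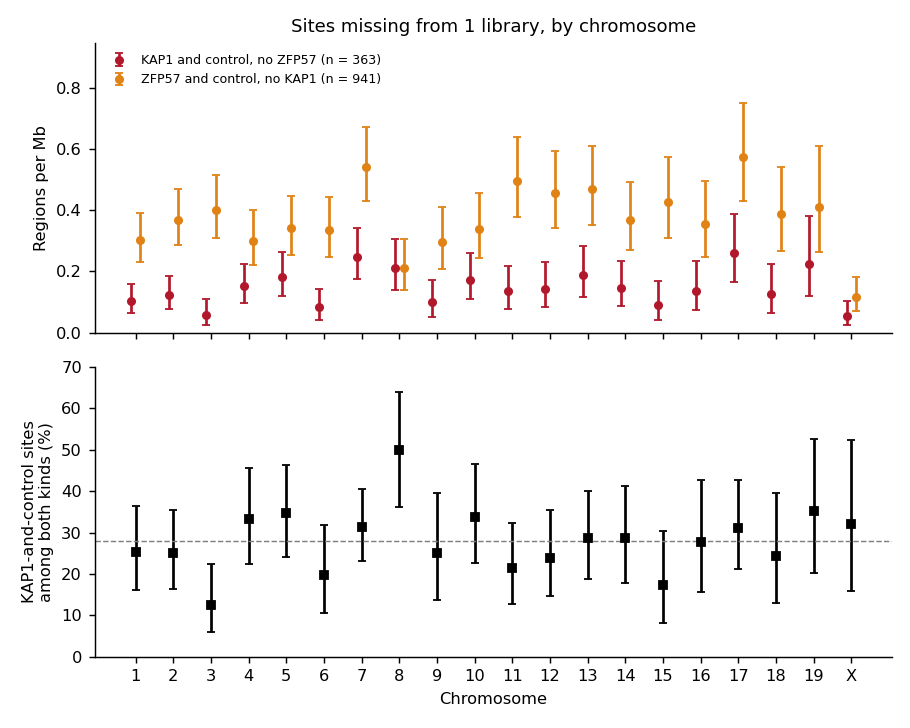
Upper panel, KAP1 and control sites without ZFP57 (red) and ZFP57 and control sites without KAP1 (orange) per Mb with exact Poisson 95% intervals, for chromosomes 1 to 19 and X. Lower panel, the first kind as a percentage of both kinds with exact binomial 95% intervals and a dashed line at 27.9%; chromosome 8 is at 50% and chromosome 3 at 12.5%.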

How the data were processed

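Per the labels, chromatin of paraformaldehyde-treated, sonicated nuclei was isolated with antibody and sequenced. The authors deposited 1 list of regions per library (chromosome, start, end), with no header and no other value; the submitters' processing notes name Bowtie and build mm9. For the Bowtie version, the peak caller and its threshold, no value is stated in the labels or files. The deposited positions were used as listed, and distances were taken between starts; offsets between midpoints are the same, since all widths are equal. Members were recomputed with bedtools 2.31.1, which also gave 364. The distance code was tested on simulated lists. Intervals are exact 95% binomial (Clopper-Pearson) or Poisson intervals and cover counting error only. Members, windows, sets and chromosomes were chosen with earlier results of these data known. Named sites are those at the thresholds, farthest from ZFP57, with equal starts (first 5), with repeated spacing, and the fullest loci and windows, ties in genome order. Each chromosome's span runs from the lowest to the highest listed position. Gene position and sequence were not analysed here. Python 3.11.15, numpy 2.4.6, pandas 2.3.3, scipy 1.17.1 and matplotlib 3.10.9 were used.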

Additional observations from a re-analysis of the deposited data

How the results depend on the processing

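Leaving out a library would empty its group, so this was not run. No paired analysis was possible because there is a single library in each group. Keeping 5 kb from ZFP57 gave 476 sites, 45.8% with a KAP1 neighbour within 10 kb and 25.2% in dense windows. Keeping 50 kb gave 201 sites in 192 loci, 27.4% with a neighbour and 3.98% in dense windows, so crowding depends on the distance kept from ZFP57. Offset limits of 75 and 500 bp gave 254 and 499 sites and median distances between starts of 27 and 70 bp, a change that the limit itself makes; at 500 bp chromosome 8 held 0.327 sites per Mb. Of the 45 values recomputed, the other 36 stayed within their interval, or for counts within 1.5 times. Added after seeing the data, moving the control list up by 18 bp gave 363 sites and left the median distance at 40 bp. The chromosome 8 share of both kinds of site was between 41.5% (isolated regions) and 55.3% (500 bp), with overlapping intervals between chromosome 8 and the rest for isolated regions (26.3 to 57.9% against 23.2 to 29.4%). It ranked first among the 19 autosomes and X in each of the 6 alternatives. Depth is unknown and limits every comparison.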
